A study of Mus musculus with 16 samples.

Results

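Genes of cholesterol synthesis and transport were described in whole mouse retina. The set holds 35 genes, chosen by name from pathway knowledge, out of 54532 genes in the expression table. Of these, 34 passed the filter on low values (at least 1 FPKM in at least 4 libraries) and were tested together with all 14953 genes that passed. The exception was Fdps, farnesyl diphosphate synthase, which had between 15 and 66 recovered reads per library, at 0.171 to 0.674 FPKM. FPKM is a fragment count scaled for gene length and library size.

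The retinas came from mice of the C57 and BALBc strains at 12 days of age. In the hyperoxia groups, pups breathed 75% oxygen from day 7 to day 12, the phase of oxygen-induced retinopathy in which vessels of the retina are lost, and the normoxia groups stayed in room air. There were 4 libraries in each of 4 groups: C57 normoxia, C57 hyperoxia, BALBc normoxia and BALBc hyperoxia. The series compares strains that resist the retinopathy with strains that do not, and the labels do not tell them apart. Nor do they say whether the libraries of a group came from separate animals, so the p-values measure only the spread between these libraries. The question behind the comparison is which metabolic changes go with that protection.

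Cholesterol is made from acetyl-CoA through the mevalonate pathway, squalene and lanosterol. When sterols in the endoplasmic reticulum are low, Scap escorts SREBP transcription factors to the Golgi for cleavage, and the released factors turn on the synthesis genes, whereas Insig proteins hold the complex back. When sterols are high, oxysterols activate the LXR receptors, which turn on efflux genes such as Abca1 and Abcg1 as well as Srebf1 and Mylip. The retina makes cholesterol in its neurons and glia and also takes it up from the blood, and Müller glia secrete ApoE particles that carry it.

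Depth, as recovered reads, ran from 16.7 M to 29.7 M (M, mega), and the median was 20.5 M. All 10 rod photoreceptor markers were present in every library, with a mean log2(FPKM + 0.5) between 7.98 and 9.50. Libraries of a group stood apart in rod, lens and sex-linked genes. Rod markers were at 8.16 and 7.98 in C57 normoxia replicates 1 and 2, against 9.33 and 9.01 in replicates 3 and 4. The 12 tested lens markers were at -0.28 and 0.08 in C57 hyperoxia replicates 1 and 2, against 7.61 and 4.08 in replicates 3 and 4. All 4 C57 hyperoxia libraries held the female transcript Xist, at 61.8 to 105 FPKM, whereas C57 normoxia replicates 1 to 3 held it at under 0.5 FPKM and expressed the Y-linked gene Ddx3y, so sex and oxygen cannot be told apart for those libraries. In BALBc, Xist was at 0.022 and 0.020 FPKM in normoxia replicates 1 and 2 and at 0.109 in hyperoxia replicate 4. The other BALBc libraries held it at 34.4 to 140 FPKM, so sex was uneven there and between the strains too. Both genes were seen in C57 normoxia replicate 4 (Xist 60.7, Ddx3y 3.55 FPKM), BALBc normoxia replicate 3 (122 and 0.755) and BALBc hyperoxia replicate 3 (45.6 and 1.61). In whole tissue, fewer cells of a type and less RNA per cell cannot be told apart either.

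The promoters of 3 genes are shown because they stand for the synthesis side (Hmgcs1), the efflux side (Abca1) and the strain difference (Mylip) of the results. They are the 250 bases before the RefSeq start (GRCm38.p6), 5′ to 3′ on the strand of the gene. Hmgcs1 is at chr13:119690101-119690350 on the plus strand, Abca1 at chr4:53159896-53160145 on the minus strand and Mylip at chr13:45389492-45389741 on the plus strand. Capitals mark the sterol regulatory element TCACNCCAC, the NF-Y box CCAAT and the Sp1 box GGGCGG, each searched on both strands.
Hmgcs1: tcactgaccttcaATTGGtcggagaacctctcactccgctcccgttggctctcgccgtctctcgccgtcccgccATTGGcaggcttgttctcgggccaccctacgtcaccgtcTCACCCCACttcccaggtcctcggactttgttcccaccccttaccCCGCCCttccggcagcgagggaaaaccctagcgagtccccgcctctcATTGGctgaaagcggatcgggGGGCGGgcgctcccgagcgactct
Abca1: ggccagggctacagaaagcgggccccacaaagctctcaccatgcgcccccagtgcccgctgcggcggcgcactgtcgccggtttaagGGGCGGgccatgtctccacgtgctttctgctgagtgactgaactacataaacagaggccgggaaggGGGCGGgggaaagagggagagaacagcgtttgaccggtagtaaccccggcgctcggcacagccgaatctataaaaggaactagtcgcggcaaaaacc
Mylip: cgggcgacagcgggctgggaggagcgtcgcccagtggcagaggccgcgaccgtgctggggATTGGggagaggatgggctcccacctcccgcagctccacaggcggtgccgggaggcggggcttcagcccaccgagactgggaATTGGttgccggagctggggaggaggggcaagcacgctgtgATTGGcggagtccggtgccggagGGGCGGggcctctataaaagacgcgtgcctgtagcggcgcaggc
The Hmgcs1 promoter holds 1 sterol regulatory element, TCACCCCAC, which begins 137 bases before the start, with 3 NF-Y boxes and 2 Sp1 boxes. Of the marked motifs, the Abca1 promoter holds 2 Sp1 boxes, and the Mylip promoter holds 3 NF-Y boxes and 1 Sp1 box. No motif overlaps another in these stretches.

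Promoters of 28 of the 35 genes were matched, and the motifs were counted over windows of 300 bases, from 250 before to 50 after a start. NF-Y boxes were in 22 of the 28 genes (78.6%), against 42.3% of 17492 protein-coding genes. Sp1 boxes were in 23 of the 28 (82.1%), against 49.2%. The sterol regulatory element in this exact form was in 1 of the 28, against 1.41% of all genes. The LXR direct repeat, AGGTCA followed after any 4 bases by AGGTCA, was in 0 of the 28 and in 0 of the 17492, in these windows. Since this exact form matched no gene at all, the search cannot tell whether these promoters, that of Abca1 included, hold a looser LXR element. These matches describe the sequence only.

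Apoe, the lipoprotein that carries cholesterol between retinal cells, had the highest FPKM of the 35, with a mean of 218 FPKM over 16 libraries. It was followed by Scap (26.1 FPKM), the efflux transporter Abcg1 (25.9 FPKM), Hmgcs1 (25.3 FPKM), which makes HMG-CoA, and Srebf1 (24.4 FPKM), which encodes SREBP-1. Means of these 4 lay within 2 FPKM of each other and their order is not resolved by the spread between libraries. Of the LXR receptors, Nr1h2 (LXR beta) had a mean of 21.8 FPKM and Nr1h3 (LXR alpha) 0.995 FPKM. Soat1, which esterifies cholesterol for storage, was low at 1.21 FPKM.

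**Figure D1:**
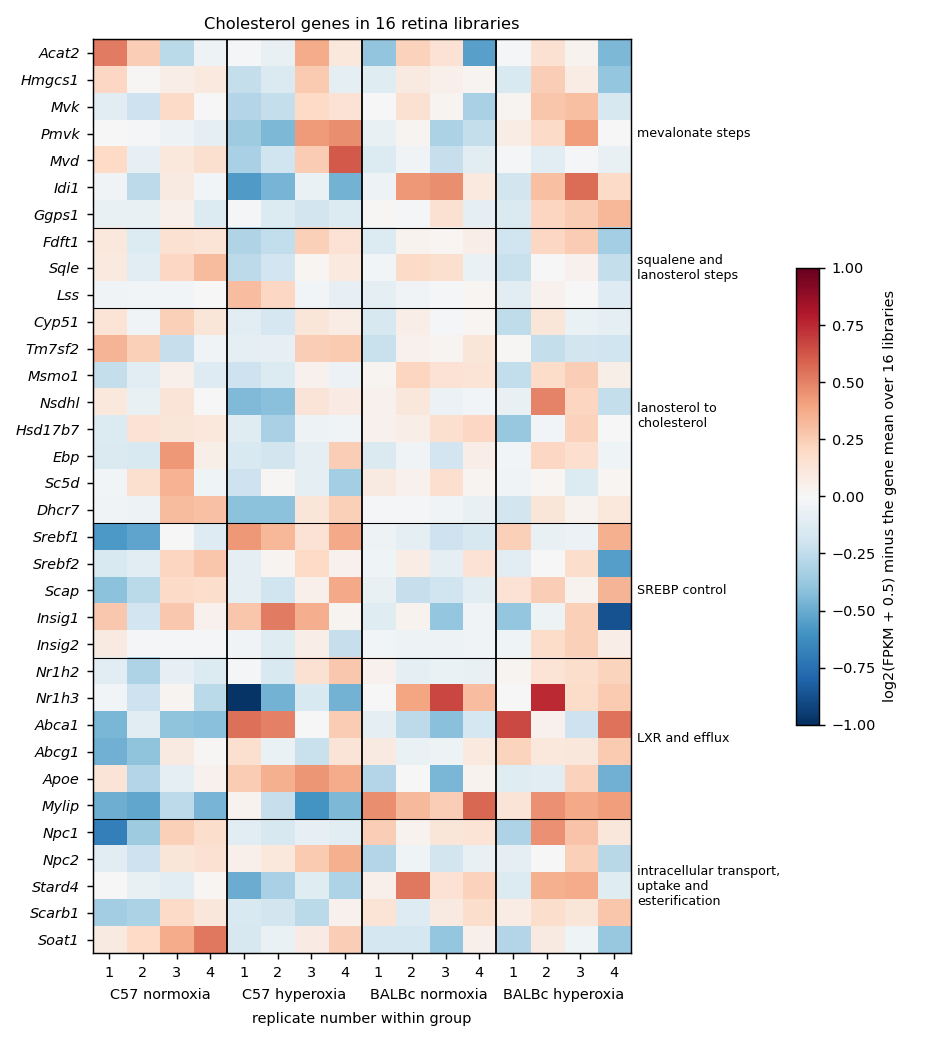
Each row is 1 of the 34 tested genes, grouped by role, and each column 1 of 16 libraries; colour gives log2(FPKM + 0.5) minus the gene's mean over all libraries. Srebf1 and Abca1 are mostly red in the hyperoxia libraries, Mylip is blue to pale in C57 and red in BALBc, and several synthesis genes differ between replicates 1 and 2 and replicates 3 and 4 of C57 hyperoxia.

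Hyperoxia went with higher Abca1 and Srebf1 when both strains were averaged, and with no called change in any synthesis enzyme. Averaged over the strains, 2 of the 34 genes passed an adjusted p of 0.05 (limma, Benjamini-Hochberg over all tested genes), both higher (5.88%), against a background of 1.79% of all tested genes called in either direction, 1.04% higher and 0.749% lower. Within C57 alone 0 of 34 passed (background 0.334%), and within BALBc alone 0 of 34 passed (background 0.161%). At an unadjusted p under 0.05 there were 5 genes in C57 (4 higher and 1 lower, background 13.3%), 2 higher in BALBc (background 14.2%) and 7 in the average (5 higher and 2 lower, background 17.3%). The share was 14.7% in C57, near its background, 5.88% in BALBc, below its background, and 20.6% in the average. The median log2 difference of the 34 genes was -0.01 in C57, 0.04 in BALBc and 0.02 in the average, beside 0.01, -0.00 and 0.00 for all tested genes.

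Abca1 encodes the transporter that moves cholesterol and phospholipid out of cells onto apolipoproteins. In C57 normoxia its FPKM was 5.46, 7.07, 5.72 and 5.63 in replicates 1 to 4, and in C57 hyperoxia 11.5, 11.1, 7.70 and 9.27. Every C57 hyperoxia library was above every C57 normoxia library. In BALBc it was 7.2, 6.34, 5.63 and 6.78 FPKM in normoxia, and 12.5, 7.97, 6.62 and 11.4 FPKM in hyperoxia. BALBc hyperoxia replicates 1 and 4 were high, and replicate 3 fell within the normoxia range. Abca1 rose by 0.59 on the log2 scale over both strains (SE 0.12, 1.5-fold, adjusted p = 0.0292). The difference was 0.67 in C57 (SE 0.17, adjusted p = 0.110) and 0.50 in BALBc (SE 0.17, adjusted p = 0.207), neither past the threshold alone.

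The call for Abca1 was not firm. It was lost when any of BALBc normoxia replicates 3 or 4, BALBc hyperoxia replicate 4, C57 normoxia replicates 1 or 4, or C57 hyperoxia replicates 1 or 2 was left out, with adjusted p between 0.0509 and 0.0630, and with a sex covariate (0.154), TPM scaling (0.156), no filter on low values (0.0658) or without C57 normoxia replicates 1 and 2 (0.0746). Its log2 difference stayed between 0.42 and 0.76 over all settings tried.

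Srebf1 encodes SREBP-1, whose SREBP-1c form drives fatty acid synthesis genes and is itself an LXR target. In C57 normoxia it had 15.9, 16.4, 23.9 and 21.7 FPKM, and in C57 hyperoxia 32.4, 30.2, 26.4 and 31.2 FPKM. The C57 groups did not overlap, and normoxia replicates 1 and 2, the libraries low in rod markers, were the lowest. In BALBc it had 23.0, 22.4, 20.6 and 21.3 FPKM in normoxia, and 28.2, 22.6, 23.0 and 30.6 FPKM in hyperoxia. As for Abca1, BALBc hyperoxia replicates 1 and 4 were the high ones, and replicates 2 and 3 lay close to the normoxia values. Srebf1 rose by 0.44 over both strains (SE 0.09, 1.35-fold, adjusted p = 0.0315), with 0.63 in C57 (SE 0.13, adjusted p = 0.0534) and 0.24 in BALBc (SE 0.13, adjusted p = 0.435). The difference between the strains' responses was -0.39 (95% interval -0.78 to 0.01, adjusted p = 0.535), which did not pass.

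The call for Srebf1 was lost without any of BALBc normoxia replicates 1, 3 or 4, BALBc hyperoxia replicate 4, C57 normoxia replicates 1 or 2, or C57 hyperoxia replicates 1, 2 or 4 (adjusted p between 0.0503 and 0.0682), and with a sex covariate (0.135), TPM scaling (0.122), no filter (0.0653) or without C57 normoxia replicates 1 and 2 (0.103). Exons of Srebf1 share bases with Rai1, which had 8.04 FPKM. Whether counting used strand is not stated in the sources used here, so reads of the 2 genes may be mixed.

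The other LXR and efflux genes did not pass in either strain. Apoe had 234, 175, 200.4 and 221 FPKM in C57 normoxia and 255, 274, 292 and 278 FPKM in C57 hyperoxia, so these groups did not overlap. The BALBc normoxia libraries had 175, 215, 156 and 219 FPKM and those in hyperoxia 197, 198, 251 and 154 FPKM, with overlap. Its log2 difference was 0.41 in C57 (95% interval 0.09 to 0.74, adjusted p = 0.243) and 0.06 in BALBc (-0.27 to 0.38, adjusted p = 0.902). Abcg1 had a mean of 22.7 ± 4.58 (SD, n = 4) FPKM in C57 normoxia and 25.8 ± 3.20 in hyperoxia, and 26 ± 1.60 and 29.1 ± 1.65 in BALBc, where the groups did not overlap. Its log2 difference was 0.19 in C57 (adjusted p = 0.540) and 0.16 in BALBc (adjusted p = 0.598). Nr1h2 was at 0.22 (adjusted p = 0.302) and 0.19 (adjusted p = 0.362). Nr1h3 went the other way in C57, at -0.40 (95% interval -0.85 to 0.05, adjusted p = 0.444), the lowest value of the 34 genes there. In BALBc it was at -0.05 (adjusted p = 0.949). Over the 6 LXR and efflux genes, 5 were above 0 in C57 with a median of 0.21, and 4 were above 0 in BALBc with a median of 0.11. Of all 14953 tested genes, 7707 were above 0 in C57 and 7323 in BALBc.

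**Figure D2:**
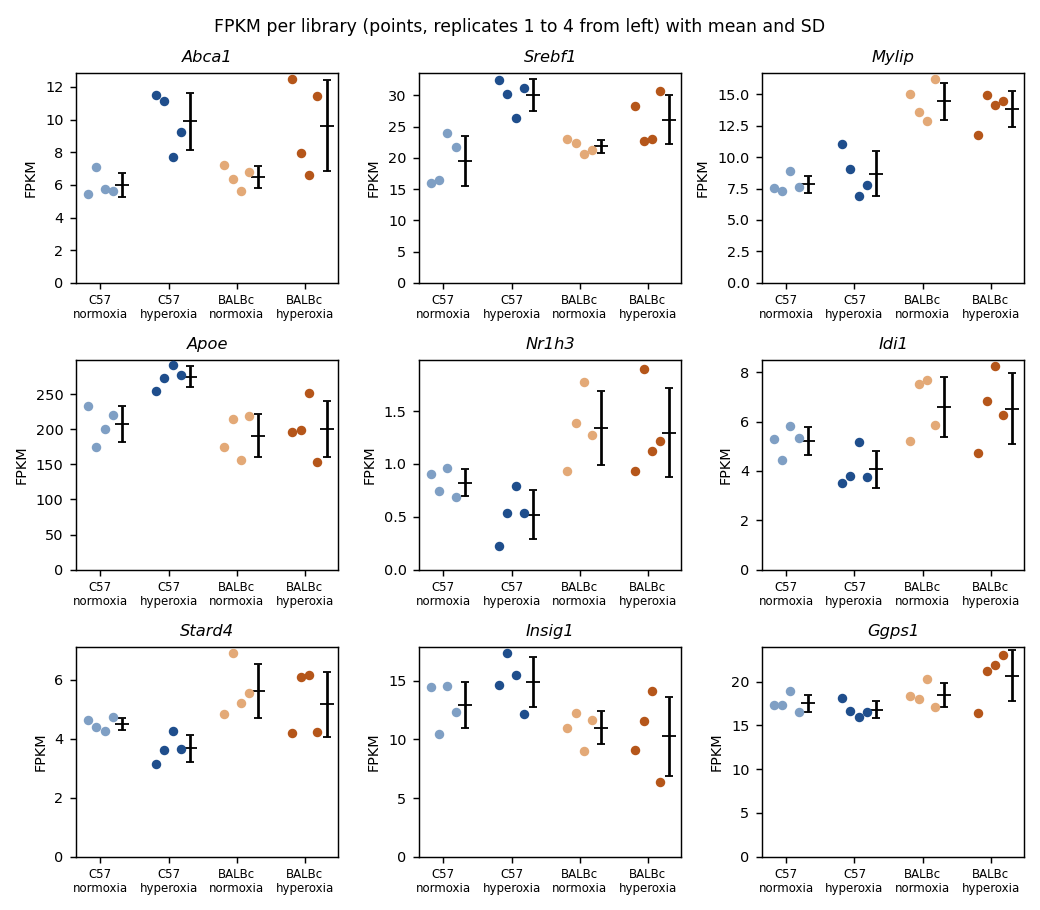
Points are FPKM in each library of C57 normoxia, C57 hyperoxia, BALBc normoxia and BALBc hyperoxia, and bars the mean and SD of 4 libraries, for the 9 genes called in any comparison. Abca1 and Srebf1 lie higher in hyperoxia, with BALBc hyperoxia split into 2 high and 2 lower libraries, and Mylip lies higher in all 8 BALBc libraries than in the C57 libraries.

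The remaining SREBP control genes did not pass. In BALBc, Scap had 24.5, 21.9, 22.4 and 23.9 FPKM in room air and 28.7, 30.8, 26.4 and 32.9 FPKM in hyperoxia. These groups did not overlap, and the log2 difference was 0.35 (95% interval 0.04 to 0.65, adjusted p = 0.294). In C57, where normoxia ran from 19.3 to 29.6 FPKM, the difference was 0.11 (-0.19 to 0.42). Srebf2, which encodes the SREBP-2 factor of the synthesis genes, was at -0.01 in C57 (-0.31 to 0.28) and -0.15 in BALBc (-0.44 to 0.15). Insig1, which retains Scap in the endoplasmic reticulum, was at 0.20 in C57 (-0.21 to 0.61) and -0.14 in BALBc (-0.55 to 0.27). Insig2, its relative, was at -0.09 (-0.26 to 0.08) and 0.15 (-0.01 to 0.32).

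None of the 18 tested synthesis enzymes passed under hyperoxia in either strain or in the average. In C57 14 of the 18 were below 0 with a median of -0.10, and in BALBc 10 were below 0 with a median of -0.02. Of all 14953 tested genes, 7241 were below 0 in C57 and 7626 in BALBc. The 18 were pooled after their values were seen. Among the mevalonate enzymes, Hmgcs1 had 29.0, 25.3, 26.3 and 27.0 FPKM in C57 normoxia and 21.2, 22.7, 30.2 and 23.6 FPKM in C57 hyperoxia. In BALBc it had 23.0, 26.7, 26.1 and 25.6 FPKM and then 22.5, 29.9, 26.4 and 19.1 FPKM. The groups overlapped in both strains, at -0.15 in C57 (95% interval -0.42 to 0.13) and -0.07 in BALBc (-0.34 to 0.21). Idi1, which isomerises isopentenyl diphosphate, was at -0.33 in C57 (-0.67 to 0.01, adjusted p = 0.386) and -0.02 in BALBc (-0.36 to 0.32). Pmvk, phosphomevalonate kinase, had the highest BALBc value of the enzymes, at 0.32 (-0.06 to 0.70, adjusted p = 0.444).

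At the squalene steps, Sqle, the squalene epoxidase, had 11.5 ± 1.49 (SD, n = 4) FPKM in C57 normoxia and 9.84 ± 1.23 in hyperoxia, and 10.9 ± 1.01 and 9.66 ± 1.04 in BALBc. Its log2 difference was -0.21 in C57 and -0.17 in BALBc, or -0.19 in the average (95% interval -0.36 to -0.02, adjusted p = 0.235). Fdft1, squalene synthase, was at -0.10 and -0.02, and it shares exon bases with Ctsb, a cathepsin gene at 51.8 FPKM. Lss, which closes squalene epoxide to lanosterol, had 6.54 and 6.06 FPKM in C57 hyperoxia replicates 1 and 2 and between 4.70 and 5.34 FPKM in each of the other 14 libraries.

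Of the 8 enzymes from lanosterol to cholesterol, Sc5d, a sterol desaturase, had 8.17, 9.38, 10.8 and 8.10 FPKM in C57 normoxia and 7.19, 8.42, 7.75 and 6.48 FPKM in C57 hyperoxia. In BALBc it had 8.94, 8.64, 9.45 and 8.54 FPKM and then 8.14, 8.48, 7.56 and 8.47 FPKM, so that the BALBc groups did not overlap and the C57 groups did. Its log2 difference was -0.27 in C57 (95% interval -0.47 to -0.06, adjusted p = 0.231) and -0.12 in BALBc (-0.32 to 0.09, adjusted p = 0.622). Cyp51, the lanosterol demethylase, was at -0.14 and -0.05, and it shares exon bases with Akap9 (8.40 FPKM). Dhcr7, which makes the final step to cholesterol in one branch, was at -0.24 and 0.06. Hsd17b7, a sterol ketoreductase, was at -0.19 and -0.17. The other 4 enzymes of this stretch (Tm7sf2, Msmo1, Nsdhl and Ebp) lay between -0.20 and 0.15 in both strains.

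Intracellular transport, uptake and esterification genes did not pass. Stard4, a carrier of cholesterol between membranes, had 4.62, 4.39, 4.27 and 4.73 FPKM in C57 normoxia and 3.15, 3.62, 4.25 and 3.66 FPKM in C57 hyperoxia. All 4 hyperoxia values were below the normoxia values, the nearest by under 0.1 FPKM, and the log2 difference was -0.27 (95% interval -0.56 to 0.02, adjusted p = 0.407). In BALBc it was at -0.12 (-0.41 to 0.17). Npc1 and Npc2, which export cholesterol from lysosomes, were at 0.04 and 0.20 in C57 and at 0.00 and 0.12 in BALBc, and Npc1 shares exon bases with Rmc1 (5.67 FPKM). Scarb1, the HDL receptor, was at -0.05 and 0.09, and Soat1 at -0.27 and 0.02. Counting all roles, 3 genes were higher without overlap of the groups in C57 (Apoe, Srebf1 and Abca1) and 1 was lower (Stard4), against 7.63% of all tested genes in either direction (3.89% higher, 3.74% lower). In BALBc 2 were higher (Scap and Abcg1) and 1 was lower (Sc5d), against 8.82% (5.68% higher, 3.14% lower).

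**Figure D3:**
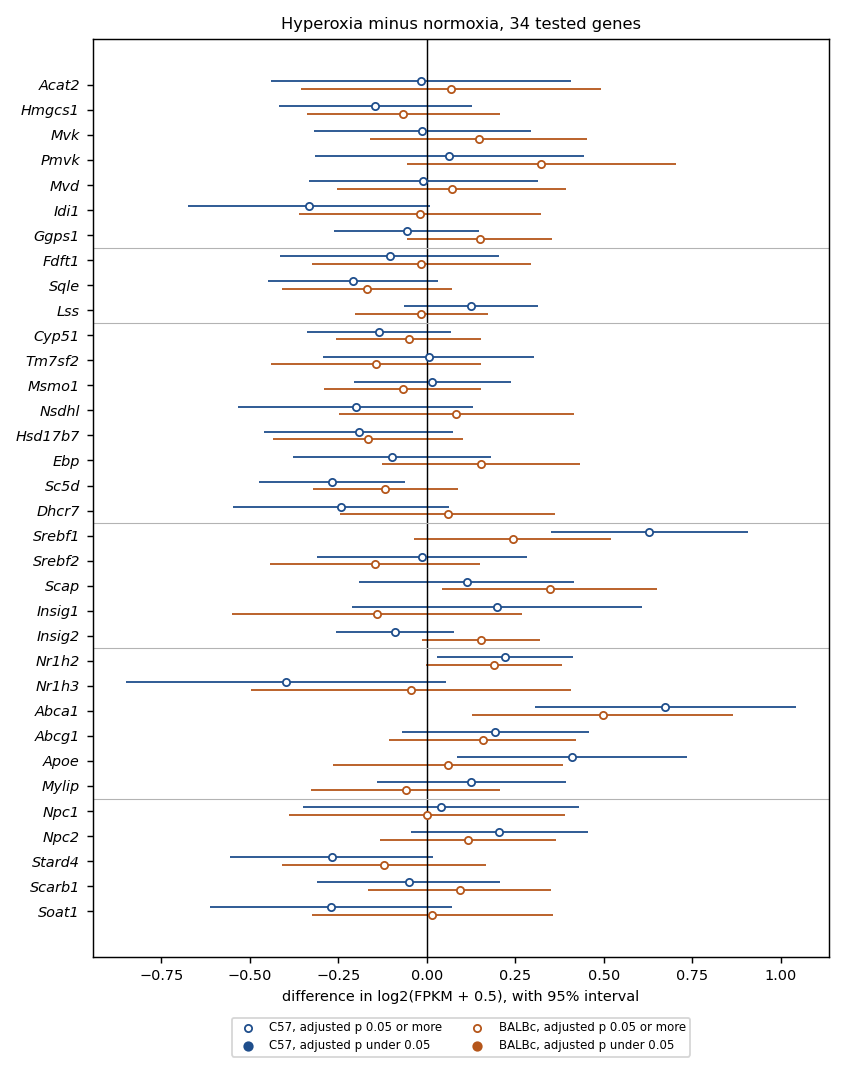
For each tested gene, circles give the hyperoxia minus normoxia difference in log2(FPKM + 0.5) in C57 and BALBc and lines the 95% interval. No circle is filled, since no gene passed within a strain. Intervals lie above 0 for Abca1 in both strains, for Srebf1, Apoe and Nr1h2 in C57 and for Scap in BALBc. That of Sc5d lies below 0 in C57, and the other intervals cross 0.

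The response to oxygen did not differ between the strains for any of the 34 genes at an adjusted p of 0.05 (limma), and it differed for 0 of the 14953 tested genes (background 0%). At an unadjusted p under 0.05 there was 1 gene of the 34, Insig2, against 9.56% of all genes (1430 genes), and with library quality weights 11 of the 34 and 3473 of all genes passed. For Insig2 the difference, BALBc minus C57, was 0.24 (95% interval 0.01 to 0.48, adjusted p = 0.509). The intervals were wide: that of Nr1h3 was -0.28 to 0.99, that of Idi1 -0.17 to 0.80, that of Dhcr7 -0.13 to 0.73, that of Apoe -0.81 to 0.11 and that of Insig1 -0.92 to 0.24. Over the 18 synthesis enzymes the difference was above 0 for 15, with a median of 0.09, and the median over all 34 genes was 0.08, beside 0.00 for all tested genes.

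Several synthesis enzymes differed between libraries of C57 hyperoxia by more than between the group means. Pmvk had 13.0 and 12.2 FPKM in C57 hyperoxia replicates 1 and 2 and 22.7 and 23.3 FPKM in replicates 3 and 4. Mvd, which decarboxylates mevalonate diphosphate, had 8.11 and 8.87 FPKM against 12.3 and 16 FPKM, and Dhcr7 had 6.47 and 6.5 FPKM against 9.62 and 10.5 FPKM. The mean log2(FPKM + 0.5) of the 18 enzymes was 2.97 and 2.98 in replicates 1 and 2 and 3.29 and 3.25 in replicates 3 and 4, the libraries whose lens markers were at 7.61 and 4.08 against -0.28 and 0.08. In BALBc hyperoxia it was 3.07 and 3.09 in replicates 1 and 4 and 3.32 in both replicates 2 and 3. Rod markers there were at 8.42 and 9.03 against 9.48 and 9.50, and lens markers at 0.60 and 1.78 against 5.68 and 2.93. Pigment epithelium markers there were at 2.64 and 3.82 against 4.72 and 5.10. In C57 hyperoxia the pigment epithelium markers were at 2.54 and 3.50 in replicates 1 and 2 and at 2.32 and 2.51 in replicates 3 and 4. Rod markers in C57 hyperoxia were at 8.56 and 8.60 in replicates 1 and 2 and at 8.59 and 8.71 in replicates 3 and 4. In C57 normoxia the enzyme mean ran from 3.16 to 3.29, and in BALBc normoxia from 3.11 to 3.27. The part of lens tissue, rod content or another library property in these values was not tested.

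**Figure D4:**
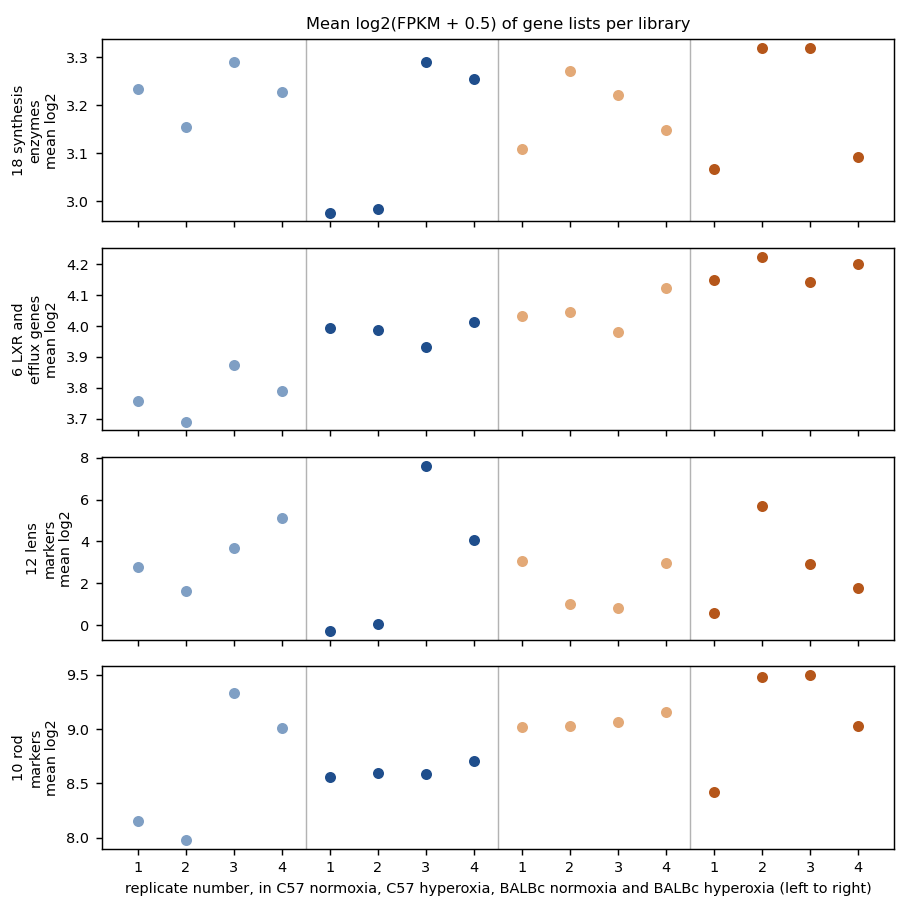
From top to bottom, points give the mean log2(FPKM + 0.5) of the 18 synthesis enzymes, the 6 LXR and efflux genes, 12 lens markers and 10 rod markers in each library. The enzymes are low in C57 hyperoxia replicates 1 and 2 (2.97 and 2.98), where lens markers are lowest, and the LXR and efflux genes are lowest in C57 normoxia.

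Between the strains the clearest difference was in Mylip, which was higher in BALBc in both oxygen conditions. Mylip encodes IDOL, a ubiquitin ligase induced by LXR that sends lipoprotein receptors to degradation. In normoxia it had 7.51, 7.32, 8.85 and 7.63 FPKM in C57 and 15, 13.6, 12.9 and 16.2 FPKM in BALBc. In hyperoxia it had 11, 9.07, 6.93 and 7.75 FPKM in C57 and 11.8, 14.9, 14.1 and 14.5 FPKM in BALBc. Every BALBc library was above every C57 library within each oxygen condition, by the least between C57 hyperoxia replicate 1 and BALBc hyperoxia replicate 1. The log2 difference was 0.84 in normoxia (SE 0.13, 1.79-fold, adjusted p = 0.000351) and 0.65 in hyperoxia (SE 0.13, 1.57-fold, adjusted p = 0.00207). Both passed under all 33 other settings, with adjusted p up to 0.0116 and 0.0283. Its own response to oxygen was 0.13 in C57 and -0.06 in BALBc (adjusted p = 0.719 and 0.874).

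In normoxia, Mylip was the only gene of the 34 past the threshold, against a background of 9.08% of all tested genes (4.7% higher, 4.38% lower). At an unadjusted p under 0.05 there were 4 genes, against 22.9%, and 4 had groups that did not overlap (Mylip and Stard4 higher in BALBc, Insig2 and Soat1 lower), against 18% (9.09% higher, 8.93% lower). Soat1 had 1.30, 1.43, 1.68 and 1.93 FPKM in C57 and 0.993, 0.989, 0.791 and 1.25 FPKM in BALBc. Its log2 difference was -0.47 (95% interval -0.81 to -0.13, adjusted p = 0.0854). The median of the 34 genes was -0.03, with 13 above 0, beside 0.01 for all tested genes. The synthesis enzymes had 4 of 18 above 0 and a median of -0.07.

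In hyperoxia 7 of the 34 genes passed (20.6%), 5 higher and 2 lower in BALBc, near the background of 22.6% of all tested genes (11.8% higher, 10.8% lower). Besides Mylip, the higher ones were Idi1, Ggps1, Nr1h3 and Stard4, and the lower ones were Insig1 and Apoe. At an unadjusted p under 0.05 there were 9, against 36%. Groups did not overlap for Scarb1, Mylip and Nr1h3, higher, and Apoe, lower, against 21.4% of all genes (11.3% higher, 10.1% lower). The median of the 34 was 0.11, with 20 above 0, beside 0.01 for all tested genes.

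Idi1 had 3.52, 3.80, 5.17 and 3.77 FPKM in C57 hyperoxia and 4.75, 6.83, 8.25 and 6.27 FPKM in BALBc hyperoxia. Only C57 replicate 3 reached the BALBc range. It was higher in BALBc by 0.61 (SE 0.16, 1.53-fold, adjusted p = 0.0141), and the call was lost with a rod covariate (0.0532) and without BALBc hyperoxia replicates 2 and 3 (0.157). In normoxia the difference was 0.30 (95% interval -0.04 to 0.64, adjusted p = 0.290).

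Nr1h3, the LXR alpha gene, had 0.226, 0.536, 0.788 and 0.535 FPKM in C57 hyperoxia and 0.937, 1.90, 1.12 and 1.22 FPKM in BALBc hyperoxia. It rested on 10 to 89 reads per library. The groups did not overlap, and the difference was 0.82 (SE 0.21, 1.76-fold on the scale with 0.5 added, adjusted p = 0.0132). Nr1h3 reached 1 FPKM in 6 BALBc libraries and in no C57 library, so it passed the filter through BALBc alone, the strain in which it was higher; with no filter its adjusted p was 0.0277. The call was lost when only these groups were fitted (0.0576) and without BALBc hyperoxia replicates 2 and 3 (0.102). Under the stricter filter, at least 1 FPKM in at least 8 libraries, Nr1h3 was not tested at all. In normoxia the difference was 0.46 (adjusted p = 0.207).

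Stard4 had 4.19, 6.08, 6.14 and 4.24 FPKM in BALBc hyperoxia, with replicates 2 and 3 high, beside the C57 values given above. It was higher by 0.43 (SE 0.14, 1.35-fold, adjusted p = 0.0334). The call was lost without BALBc hyperoxia replicates 2 or 3 or C57 hyperoxia replicates 1, 2 or 4 (0.0545 to 0.104). It was also lost with a sex covariate (0.0676), a rod covariate (0.107), TPM scaling (0.145), no filter (0.0661) or only the compared groups (0.0956), and without BALBc hyperoxia replicates 2 and 3 together the difference was 0.18 (adjusted p = 0.390).

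Ggps1, which makes the geranylgeranyl diphosphate used to anchor proteins in membranes, had 18.1, 16.6, 16 and 16.5 FPKM in C57 hyperoxia and 16.4, 21.2, 21.9 and 23.1 FPKM in BALBc hyperoxia. BALBc replicate 1 lay in the C57 range. The difference was 0.28 (SE 0.10, 1.21-fold, adjusted p = 0.0485), and the call was lost without any library other than BALBc hyperoxia replicate 1 and C57 normoxia replicate 3 (14 of 16 libraries, 0.0522 to 0.140). With TPM scaling it was 0.12 (adjusted p = 0.494), and the call was also lost with a sex covariate (0.182), a rod covariate (0.146), quantile normalization (0.0686), no variance trend (0.0603), a replicate block (0.0668), no filter (0.0775) or only the compared groups (0.132), and without C57 normoxia replicates 1 and 2 (0.0590) or BALBc hyperoxia replicates 2 and 3 (0.273). Ggps1 shares exon bases with Arid4b, which had 6.32 FPKM.

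Apoe was lower in BALBc hyperoxia than in C57 hyperoxia by -0.48 (SE 0.15, 1.39-fold lower, adjusted p = 0.0360), where the C57 values had a mean of 275 ± 15.1 (SD, n = 4) FPKM and the highest BALBc library, at 251 FPKM, lay below all of them. In normoxia it had 207 ± 25.7 FPKM in C57 and 191 ± 30.9 FPKM in BALBc, at -0.12 (95% interval -0.45 to 0.20). The hyperoxia call was lost without BALBc hyperoxia replicates 2 or 4 or any C57 hyperoxia library (0.0549 to 0.118). It was also lost with a sex covariate (0.125), a replicate block (0.0604), quality weights (0.0959), no filter (0.0845) or only the compared groups (0.0702), and without BALBc hyperoxia replicates 1 and 4 together the difference was -0.30 (adjusted p = 0.204).

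Insig1 had 14.6, 17.3, 15.5 and 12.2 FPKM in C57 hyperoxia and 9.06, 11.5, 14.2 and 6.33 FPKM in BALBc hyperoxia. BALBc replicate 4 was low and replicate 3 fell in the C57 range. The difference was -0.56 (SE 0.19, 1.48-fold lower, adjusted p = 0.0468), and the call was lost without any library other than BALBc hyperoxia replicate 3, C57 normoxia replicate 2 and C57 hyperoxia replicate 4 (13 of 16 libraries, 0.0502 to 0.143). Without BALBc hyperoxia replicates 1 and 4 it was -0.20 (adjusted p = 0.381). The call was also lost with a sex covariate (0.144), quality weights (0.0715), no variance trend (0.0558), no filter (0.0965) or only the compared groups (0.119), and without C57 normoxia replicates 1 and 2 (0.0502).

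**Figure D5:**
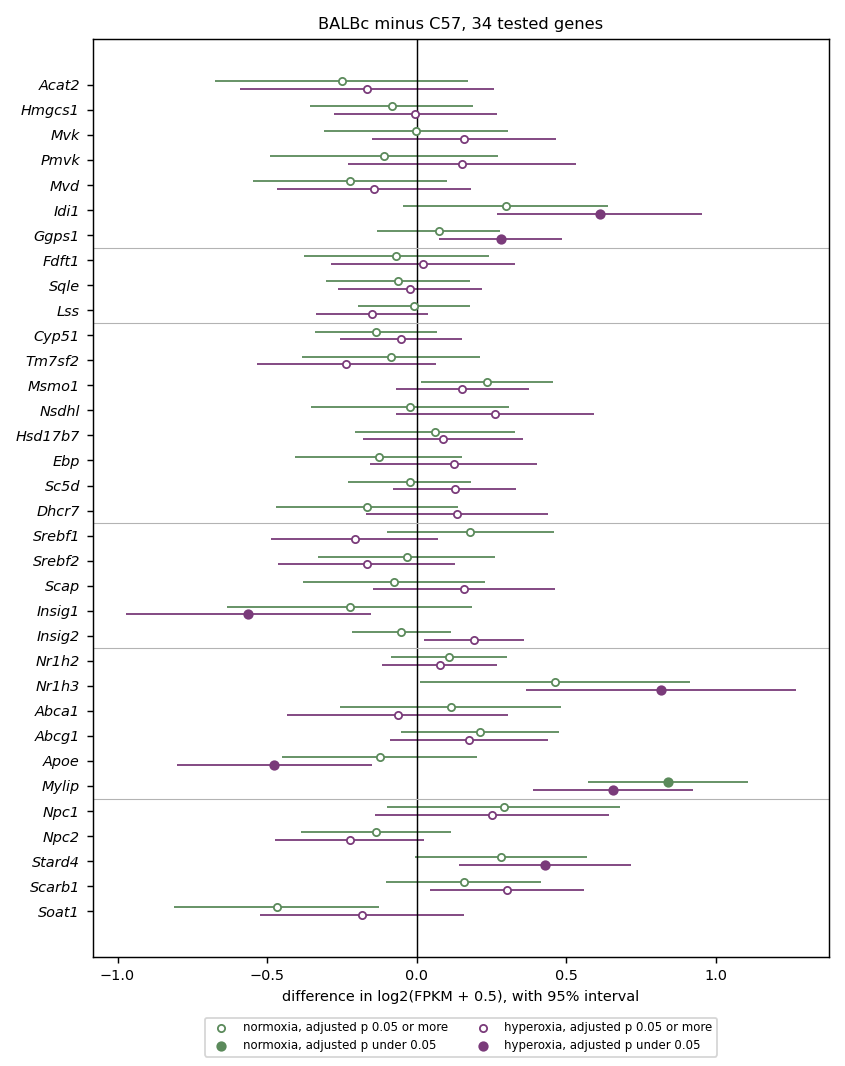
For each tested gene, circles give the BALBc minus C57 difference in log2(FPKM + 0.5) in normoxia and hyperoxia, filled where adjusted p was under 0.05, and lines the 95% interval. Mylip is filled in both conditions, and Idi1, Ggps1, Insig1, Nr1h3, Apoe and Stard4 in hyperoxia.

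A further 41 genes of sterol uptake, oxysterol formation, sterol sensing and lipid carriage were read beside these, of which 36 were tested. Under hyperoxia, 0 passed in C57 (background 0.334%) or BALBc (0.161%), and in the average 1 passed (2.78%, background 1.79%), Apod, a small lipid carrier of the lipocalin family. Apod had 2.47, 1.65, 1.64 and 2.09 FPKM in C57 normoxia, 1.10, 1.09, 1.08 and 1.16 FPKM in C57 hyperoxia, and in BALBc 0.271, 0.703, 0.355 and 0.339 FPKM in room air and 0.0560, 0.146, 0.134 and 0.130 FPKM in hyperoxia. All hyperoxia values were below the normoxia values of the same strain, and all BALBc values below the C57 values. It fell by 0.58 over both strains (SE 0.13, adjusted p = 0.0352), a call lost without any library other than BALBc normoxia replicate 1, BALBc hyperoxia replicate 1 and C57 normoxia replicate 3 (13 of 16 libraries, 0.0508 to 0.0767). It was also lost with a sex covariate (0.247), quantile normalization (0.274), no filter (0.0583) or a replicate block (0.0583), without C57 normoxia replicates 1 and 2 (0.120) and without BALBc hyperoxia replicates 2 and 3 (0.0739). The strain difference was -1.43 in normoxia (adjusted p = 6.81e-05) and -1.39 in hyperoxia (adjusted p = 7.89e-05), past the threshold in all 33 other settings, the one with no filter included. Apod reached 1 FPKM in no BALBc library, so it passed the filter through C57 alone, the strain in which it was higher.

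Of these 36, 5 passed between the strains in normoxia, 3 higher and 2 lower in BALBc, beside the background of 9.08%. Vldlr, a lipoprotein receptor, had 20.7, 22.2, 33.1 and 28.8 FPKM in C57 and 39.1, 37.0, 39.6 and 40.4 FPKM in BALBc, without overlap. It was higher by 0.59 (SE 0.14, adjusted p = 0.0117), and without C57 normoxia replicates 1 and 2 by 0.33 (adjusted p = 0.178). Gramd1b, which carries cholesterol from the plasma membrane inward, was higher by 0.37 (SE 0.10, adjusted p = 0.0277). That call was lost without BALBc normoxia replicates 1, 3 or 4 or C57 normoxia replicates 1 or 2 (0.0656 to 0.0936), with TPM scaling (0.117), a sex covariate (0.0647), voom (0.0501) or only the compared groups (0.0715), and without C57 normoxia replicates 1 and 2 together (0.270).

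In hyperoxia 11 of the 36 passed, 3 higher and 8 lower in BALBc, beside the background of 22.6%. Cyp46a1, which turns cholesterol into the oxysterol that leaves neurons, had 7.13, 7.10, 9.27 and 8.37 FPKM in C57 and 6.01, 4.47, 3.95 and 4.62 FPKM in BALBc. It was lower without overlap, at -0.69 (SE 0.12, adjusted p = 0.00122). Abca2, a lysosomal lipid transporter, had 18.9, 19.8, 20.3 and 19.2 FPKM in C57 and 15.5, 12.8, 13.3 and 12.4 FPKM in BALBc, at -0.52 (SE 0.10, adjusted p = 0.00149). In C57 hyperoxia it stood at 19.6 ± 0.628 (SD, n = 4) FPKM against 15 ± 2.07 in C57 normoxia, a log2 difference of 0.38 (adjusted p = 0.109). Abca7, a phospholipid transporter, was higher in BALBc by 0.73 (SE 0.21, adjusted p = 0.0210). The Abca7 call was lost without BALBc hyperoxia replicate 4 or C57 hyperoxia replicates 1 or 2 (0.0558 to 0.0708), with TPM scaling (0.0948), a sex covariate (0.0550) or only the compared groups (0.0831), and without BALBc hyperoxia replicates 1 and 4 together (0.146). The differences of Cyp46a1 and Abca2 in hyperoxia passed in all 33 other settings.

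Medians of several cell type markers also stood apart between the strains and between the oxygen conditions, though many single markers did not pass the threshold. All 10 rod markers were higher in BALBc, with a median log2 difference of 0.34 in normoxia (0 passed) and 0.42 in hyperoxia (2 passed). The 4 tested pigment epithelium markers were higher by medians of 1.0 (0 passed) and 1.55 (3 passed). Under hyperoxia, all 8 endothelial markers were lower in both strains, with medians of -0.54 in C57 (0 passed) and -0.76 in BALBc (2 passed). All 8 were also lower in BALBc than in C57, with medians of -0.54 in normoxia (1 passed) and -0.92 in hyperoxia (6 passed). Their summed level ran from 49.7 to 70.7 FPKM in C57 normoxia, 37.2 to 43.8 FPKM in C57 hyperoxia, 36.3 to 46.3 FPKM in BALBc normoxia and 20.3 to 33.6 FPKM in BALBc hyperoxia. The 8 Müller glia markers had a median of 0.16 in C57 and -0.34 in BALBc under hyperoxia (0 passed in each). All 4 tested mural markers were lower under hyperoxia, with medians of -0.76 in C57 and -0.64 in BALBc (0 passed in each). The 5 erythroid markers had a median of -0.21 in C57 and -1.76 in BALBc under hyperoxia (0 passed in each). All 5 were higher in BALBc in normoxia, with a median of 1.43 (2 passed). All 7 tested microglia markers were higher in BALBc in hyperoxia, with a median of 0.47, and 3 of them passed. All 12 tested lens markers were lower in BALBc in normoxia, with a median of -1.32, and higher under hyperoxia in BALBc, with a median of 0.77. In both comparisons, 0 of them had even an unadjusted p under 0.05 (limma). Their mean level spread widely within groups, from 0.83 to 3.08 in BALBc normoxia, 0.60 to 5.68 in BALBc hyperoxia and 1.63 to 5.12 in C57 normoxia. None of the listed markers was at 0 in every library. The part of these cells in the values of the genes named above was not tested.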

How the data were processed

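RNA sequencing measured gene expression in 16 retina libraries. Per the submitters' processing notes, HISAT2 2.0.5, featureCounts 1.5.0-p3 and the GRCm38 (mm10) build were used; their settings, strand included, are not given in the sources used here. The deposited table holds FPKM values made by the authors. Whole reads were recovered from the FPKM steps with exon lengths of the GENCODE mouse annotation: 97.1% to 97.5% of values came out whole, within 0.01 and up to 1000 reads.

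Values were analysed as log2(FPKM + 0.5), which understates the change of low genes, keeping genes that reached 1 FPKM in 4 or more libraries. The 4 groups were fitted together with limma 3.58.1 (empirical Bayes, mean-variance trend), with 6 comparisons, two-sided tests and Benjamini-Hochberg adjustment over all 14953 genes at a threshold of 0.05. The 33 other settings comprised pseudocounts, filters, scalings, weights, covariates, a replicate block, limma voom on recovered reads and libraries left out; 1 of them, without BALBc hyperoxia replicates 1 and 4, was chosen after seeing the data. The fit was tested on simulated data. Its precision is limited by 4 libraries per group and by the depth of 16.7 M to 29.7 M recovered reads (M, mega); all intervals are at 95%.

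The genes and lists were chosen with earlier results of these data known. Values per library are given for genes past the threshold, the most abundant of each role and those with the largest differences (at most 3 in each direction per comparison), and some genes under this rule are not reported here. Promoters are from RefSeq. The software was R 4.3.3, Python 3.11.15, pandas 2.3.3, numpy 2.4.6 and matplotlib 3.10.9.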

Additional observations from a re-analysis of the deposited data

Results flagged for a closer look

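In 6 of 136 gene and group combinations checked, a single library lay far from the other 3 of its group, relative to the range of the group; chance flags about 1 in 20 groups. In C57 normoxia, Fdft1 was lowest in replicate 2 at 11.8 FPKM, with the next at 14.2, and Abca1 was highest in replicate 2 at 7.07 FPKM, with the next at 5.72. Lss was highest in replicate 4 at 5.17 FPKM, with the next at 5.06. Hsd17b7 was lowest in replicate 1 at 2.11 FPKM, with the next at 2.59, and Insig2 was highest in replicate 1 at 11.8 FPKM, with the next at 11. In C57 hyperoxia, Idi1 was highest in replicate 3 at 5.17 FPKM, with the next at 3.80.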

How the results depend on the processing

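Single genes were followed through the 33 other settings where they were past the threshold or among the largest differences of a comparison, the further cholesterol genes included. Of these alternatives, 2125 kept their direction and side of the threshold, 234 lost the call, 49 gained a call and 9 changed sign. Since these genes were picked for large differences, the counts cannot tell how often genes near 0 changed sign. The number of the 34 genes past the threshold also varied. For the average hyperoxia response (2 genes), the count was 0 with no filter, with a sex covariate and without C57 normoxia replicates 1 and 2, 1 with TPM scaling and 5 with library quality weights. Between strains in hyperoxia (7 genes), it was 3 with no filter, a sex covariate or without BALBc hyperoxia replicates 2 and 3, 2 when only the compared groups were fitted, and 20 with quality weights. Within C57 (0 genes), it was 1 with the stricter filter or quantile normalization, 2 with a rod or lens covariate or without BALBc hyperoxia replicates 1 and 4, and 10 with quality weights. Between strains in normoxia (1 gene), it was 2 with TPM scaling, no variance trend, a rod covariate or voom, and 3 with quality weights. Quality weights gave 1 in BALBc and 11 for the difference of responses, where other settings gave 0. The cause was not tested.

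The median over the 34 genes moved by more than the spread between libraries in some settings. In BALBc it was -0.11 with TPM scaling, -0.10 without BALBc hyperoxia replicates 2 and 3 and 0.15 without replicates 1 and 4. The average response had -0.090 with TPM scaling. Between strains in hyperoxia it was -0.051 with TPM scaling, 0.21 with quality weights, -0.016 with a rod covariate and 0.0010 without BALBc hyperoxia replicates 2 and 3. In C57 it was -0.19 with quality weights and -0.14 without C57 normoxia replicates 1 and 2. For the difference it was 0.28 with quality weights, -0.032 without BALBc hyperoxia replicates 2 and 3 and 0.18 without replicates 1 and 4. TPM scaling moved the median of all genes to -0.16 in BALBc and in the hyperoxia strain comparison, and to -0.11 in the average. Leaving out each library gave counts of 0 to 1 in C57, 0 to 2 in the average and 3 to 7 between strains in hyperoxia, with no other count moving.

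Sign changed for Srebf2 in BALBc (0.038 with quality weights, 0.062 without BALBc hyperoxia replicates 1 and 4), for Insig1 in the difference (0.021 without the same libraries), for Acat2 between strains in normoxia (0.020 without C57 normoxia replicates 1 and 2), for Lcat in the difference (0.025 with quality weights, 0.16 with a sex covariate) and in C57 (-0.27 with a sex covariate), and for Pltp between strains in normoxia (-0.055 with a rod covariate) and in the difference (-0.26 without BALBc hyperoxia replicates 2 and 3).

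Over all 14953 genes, counts past the threshold ranged over settings other than leaving 1 library out from 0 to 2798 in C57 (50 reported), 3 to 2457 in BALBc (24), 15 to 2113 in the average (268), 0 to 3473 for the difference (0), 751 to 3110 between strains in normoxia (1358) and 2003 to 6800 in hyperoxia (3380). With a replicate block, 0, 0, 2, 0, 1 and 5 of the 34 genes passed in C57, BALBc, the average, the difference, and the strains in normoxia and hyperoxia, and 1 gene of all passed in C57. Deviations of libraries with the same number correlated between -0.501 and 0.401, over 0.1 in 6 of 24 pairs. Of the 16 libraries, 5 correlated best with their own number. These values did not show a pairing by number, and shared litters or batches were not tested. At this depth, genes such as Fdps and Nr1h3 rest on few reads.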
